A study of Rattus norvegicus with 8 samples.

Results

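Heat shock proteins and chaperonins fold other proteins and keep damaged ones from clumping, and 10 of their genes were followed in hippocampal neurons of the rat. They were the HSP70 genes Hspa8, Hspa1a and Hspa1b, the HSP110 genes Hspa4 and Hsph1, the mitochondrial pair Hspd1 and Hspe1 (HSP60 and HSP10), Cct2 of the cytosolic chaperonin CCT, and the small heat shock protein genes Hspb1 (HSP27) and Cryab (αB-crystallin). Members were taken by gene name, ignoring case and an ending _predicted or _mapped, among the probes of the array that are not controls. This gave 19 of 41012 probes and 10 of 12601 gene names, with more than 1 probe for 5 of the genes. Signal stood well above background for 18 of the 19 on at least 1 of the 8 arrays and for 13 on all 8. Cct2 was named by the study from these same arrays, so its values are not independent evidence of its direction.

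HSP70 proteins grip exposed stretches of unfolded proteins in cycles of ATP hydrolysis, and HSP110 proteins reset them by exchanging the nucleotide. HSP60 with its lid HSP10 folds proteins inside mitochondria, CCT folds actin and tubulin in the cytosol, and small heat shock proteins hold unfolding proteins without using ATP. Heat shock factor 1 turns on many of these genes under protein-damaging stress by binding short alternating units in their promoters, and HSP70 and HSP27 are long known as stress proteins of injured brain.

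The RNA came from CA3 neurons of male Sprague-Dawley rats, captured by laser from frozen sections of 10 µm. The age of the rats is not given in the sources used here. The paper describes staining of injured brains with cresyl violet and with Fluoro-Jade, a dye of degenerating neurons. It does not say separately how naïve and sham sections for the arrays were stained. Naïve rats were left untreated, sham rats went through the procedure without the blow, and injured rats received a moderate fluid percussion injury, in which a pulse of fluid strikes the brain, with tissue taken at 24 hours. From injured rats, Fluoro-Jade-positive neurons made up the dying group and neighbouring negative neurons the surviving group, at about 600 neurons a pool drawn from several rats. The 4 groups had 2 arrays each, and p-values measure the spread between their pools. The methods describe the dying and surviving pools as biological replicates.

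Levels are given as the log2 of the processed signal of a probe over the median of all probes of its array, so that 0 is the middle probe. That median was 28.8 and 22.7 for naïve rats, 16.5 and 16.4 for sham rats, 52.4 and 48.3 for surviving and 19.4 and 53.0 for dying neurons. Probes well above background numbered 22449 and 22391 in naïve rats, 20911 and 20193 in sham rats, 29347 and 27081 in surviving neurons and 24064 and 27997 in dying ones, so dying replicate 1 was the dimmer of its pair. Differences are between group means on the log2 scale, with the standard error and the p of limma adjusted over all probes tested in that comparison, and a probe was called at an adjusted p under 0.05. Each difference was computed again under other settings, among them 5 other scalings (the 75th percentile, quantile normalization, RefSeq probes, probes above background, and normexp background correction) and leaving out each array in turn. Both injured groups lay on slide 1 and scan 1 and both control groups on slide 2 and scan 2, so slide and injury cannot be told apart in the comparisons with sham. In pooled cells, fewer cells of a type and less RNA per cell cannot be told apart.

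Promoters of 8 of the 10 genes were found in the RefSeq table of build GRCr8, each running from 250 bases before the annotated start to 50 from it, while Cryab and Hspa1b had no entry. Heat shock element letters were searched on both strands as 2 facing units (GAANNTTC or TTCNNGAA) and as 3 alternating units (GAANNTTCNNGAA or TTCNNGAANNTTC), and a run of 3 holds 2 overlapping facing pairs. Runs of 3 stood in 4 of the 8 member promoters, against 267 of all 33469 promoters of the same length (0.798%). Facing pairs stood in 5 of the 8 and in 5305 of all (15.9%), and the letters TATAAA in 0 of the 8 and in 4760 of all (14.2%). The promoters of Hspa8 (chr8:50080264-50080563, + strand), Hspe1 (chr9:64084077-64084376, + strand), Hsph1 (chr12:10427118-10427417, + strand) and Hspb1 (chr12:26432252-26432551, - strand) are shown because they carry these letters in genes that moved in opposite directions or, for Hspe1, were not called. Capitals mark facing pairs and runs of 3.
Hspa8: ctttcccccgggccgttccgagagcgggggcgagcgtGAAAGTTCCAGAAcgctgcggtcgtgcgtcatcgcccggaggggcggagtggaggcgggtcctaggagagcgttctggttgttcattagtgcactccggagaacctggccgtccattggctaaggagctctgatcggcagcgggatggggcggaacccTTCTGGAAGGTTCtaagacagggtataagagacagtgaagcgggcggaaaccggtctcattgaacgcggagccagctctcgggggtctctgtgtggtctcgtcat
Hspe1: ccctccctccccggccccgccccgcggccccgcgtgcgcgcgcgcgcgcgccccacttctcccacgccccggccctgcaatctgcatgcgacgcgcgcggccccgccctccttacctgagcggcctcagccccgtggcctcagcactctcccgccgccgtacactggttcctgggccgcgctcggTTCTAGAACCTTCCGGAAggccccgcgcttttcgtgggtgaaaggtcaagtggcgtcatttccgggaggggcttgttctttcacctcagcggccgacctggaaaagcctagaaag
Hsph1: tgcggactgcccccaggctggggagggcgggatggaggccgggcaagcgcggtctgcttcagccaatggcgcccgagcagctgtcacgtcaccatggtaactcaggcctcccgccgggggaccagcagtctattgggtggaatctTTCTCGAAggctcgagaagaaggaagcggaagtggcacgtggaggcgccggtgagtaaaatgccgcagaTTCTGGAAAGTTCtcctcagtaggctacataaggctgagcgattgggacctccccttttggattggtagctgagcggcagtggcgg
Hspb1: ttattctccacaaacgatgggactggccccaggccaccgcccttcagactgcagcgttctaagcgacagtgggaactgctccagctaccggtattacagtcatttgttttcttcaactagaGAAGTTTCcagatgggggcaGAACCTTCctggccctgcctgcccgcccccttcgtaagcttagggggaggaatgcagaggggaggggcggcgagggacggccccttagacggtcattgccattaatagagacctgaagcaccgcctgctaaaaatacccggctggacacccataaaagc
With the start counted as 0, Hspa8 held runs of 3 at -213 to -201 and at -55 to -43, Hspe1 overlapping runs from -65 to -48, and Hsph1 a run at -36 to -24 with a lone facing pair at -105 to -98. Hspb1 held 2 separate facing pairs, at -129 to -122 and at -109 to -102, and no run of 3. Hspd1 and Hspe1 lie head to head and their windows share 211 bases (chr9:64084077-64084287), so the run that stands at -242 to -225 of Hspd1 is the one of Hspe1. A match describes letters and not a bound site, and the promoters of Hspa1a, Hspa4 and Cct2 do not hold these letters in this window. The window hangs on the annotated start, which was not checked, and bases beyond it were not searched. The lack of a match, also of TATAAA, therefore does not show that a gene lacks such an element.

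**Figure D1:**
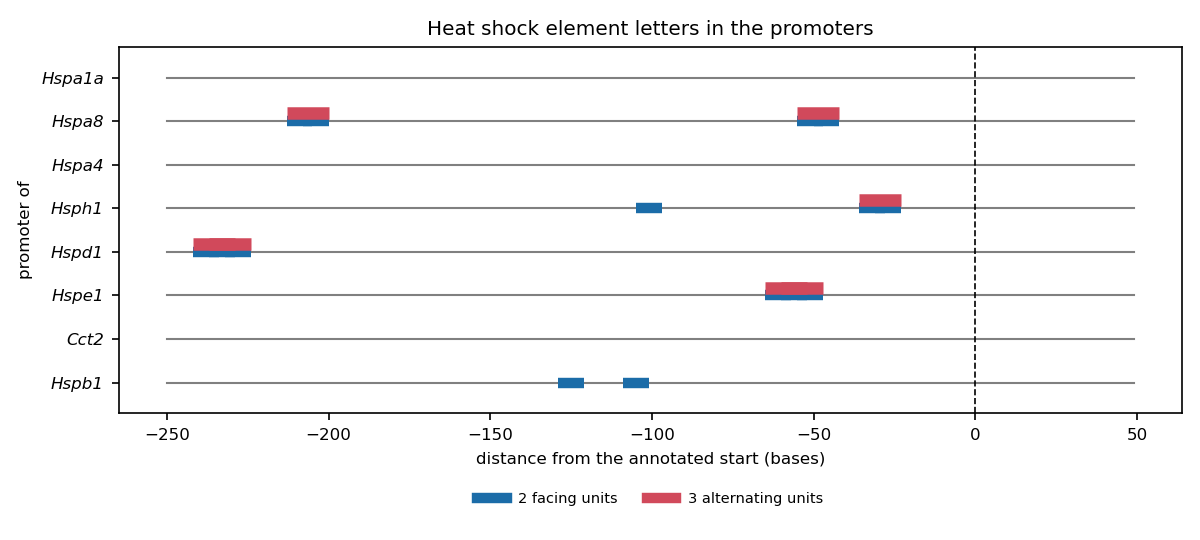
Position of facing pairs (blue) and runs of 3 units (red) in the 8 member promoters, by distance from the annotated start in bases, with a dashed line at the start. Runs of 3 stand in Hspa8, Hsph1, Hspd1 and Hspe1, and the last 2 share theirs.

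Hspa8, the constitutive HSP70 of the cytosol that also strips clathrin from vesicles at synapses, was lower in dying than in sham neurons by 3 of its 4 probes. Probe A_44_P452492 read 10.91 and 11.27 in naïve rats, 11.70 and 11.44 in sham rats, 9.50 and 9.61 in surviving neurons and 8.43 and 9.09 in dying ones. No pair of groups overlapped for this probe, with sham highest and dying lowest. Probe A_43_P12417 read 8.71 and 9.56, 9.73 and 9.24, 8.33 and 7.60, and 5.97 and 7.36 in the same order, and probe A_44_P424367 read 5.89 and 7.54, 7.02 and 6.49, 6.02 and 5.07, and 2.17 and 4.94. On both, dying neurons lay below every other array and naïve overlapped sham. The fourth probe, A_44_P396546, was well above background only in naïve replicate 2, at 1.20, and was not tested.

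From sham to dying neurons Hspa8 fell at 3 probes, with differences of -2.81 ± 0.47 at A_44_P452492 (adjusted p 0.00359), -2.82 ± 0.62 at A_43_P12417 (0.00915) and -3.20 ± 0.93 at A_44_P424367 (0.025), with both dying arrays below both sham arrays each time. The first passed in 20 of 20 alternatives (adjusted p 0.00135 to 0.0451), the second in 18 (0.00395 to 0.077) and the third in 13 (0.00442 to 0.143). Without sham replicate 1 the second was -2.58 (adjusted p 0.077) and the third -2.93 (0.127), and the third was -3.46 without sham replicate 2 (0.0746) and -1.82 without dying replicate 1 (0.136). Surviving neurons were lower than sham by the test at A_44_P452492 alone, by -2.01 ± 0.46 (adjusted p 0.0261), which passed in 12 of 20 alternatives (0.00722 to 0.304). That call was lost without sham replicate 1 (-1.88, adjusted p 0.19), sham replicate 2 (-2.14, 0.126), surviving replicate 1 (-1.95, 0.153) or surviving replicate 2 (-2.07, 0.174), and under 4 of the 5 other scalings (-1.36 to -0.79). In dying neurons the second probe was lost under normexp (-2.03) and the third under 4 other scalings (-2.48 to -1.97). The other probes gave -1.52 ± 0.62 (adjusted p 0.119, passing only with the 2 groups alone; 0.0272 to 0.797 over its alternatives) and -1.21 ± 0.94 (0.379). Surviving exceeded dying neurons by 0.80 ± 0.47, 1.30 ± 0.62 and 1.99 ± 0.94 without passing (adjusted p 0.363, 0.274 and 0.269). Each gap was wider for dying replicate 1 than for dying replicate 2, which read 9.09, 7.36 and 4.94 against surviving means of 9.56, 7.97 and 5.54. At A_44_P424367 the difference was 3.37 without dying replicate 2 and 0.61 without dying replicate 1.

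Hspa1a and Hspa1b, neighbouring genes on the chromosome, encode the stress-inducible HSP70 and are nearly identical, and which of the 2 transcripts a probe reads was not checked, so both are named as in the files. Probe A_44_P1042876 of Hspa1a, spotted 10 times, read 5.99 and 6.17 in naïve rats, 7.3 and 6.58 in sham rats, 6.66 and 6.22 in surviving neurons and 4.59 and 6.0 in dying ones. Surviving overlapped sham, and dying replicate 1 was the lowest array while dying replicate 2 sat within the naïve range. Hspa1a fell by 1.65 ± 0.58 from sham to dying neurons (adjusted p 0.0485), at the edge of the threshold, and passed in 4 of 20 alternatives (0.0111 to 0.512). Every left-out array but dying replicate 2 ended the call: it was -1.65 without either naïve array (adjusted p 0.0586 each) or either surviving array (0.0765 each), -1.29 without sham replicate 1 (0.257), -2.01 without sham replicate 2 (0.0968) and -0.95 without dying replicate 1 (0.225). The call of Hspa1a was also lost under all 5 other scalings (-1.28 to -0.48) and, at -1.65, with non-uniform spots kept, no filter, the 2 groups alone or the replicate block. Surviving neurons gave -0.50 ± 0.59 against sham (adjusted p 0.559), which turned positive under 4 other scalings (0.27 to 0.57), and 1.15 ± 0.59 against dying (0.301). No increase at this probe over sham passed the test in either injured group.

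The second Hspa1a probe, A_44_P109342, was dim, at 1.31 in naïve replicate 2, 0.72 and 0.08 in sham, 0.43 and 0.57 in surviving and -0.35 in dying replicate 2. It was not well above background at -2.0 in naïve replicate 1 and -2.30 in dying replicate 1. Its differences were -1.73 ± 1.03 for dying against sham (adjusted p 0.197), 0.10 ± 1.05 for surviving against sham (0.955) and 1.82 ± 1.05 for surviving against dying (0.355). Both Hspa1a probes had their lowest mean in dying neurons, and neither was called in surviving neurons. The 1 probe of Hspa1b, A_44_P532958, was not well above background on any array, at -4.29 to -2.33, and was not tested. Its accession matched no gene of the reference, so the name is the one the file gives, and no lack of this transcript follows from it.

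Probes with the most similar course over the 8 arrays were to be listed for Hspa1b, which had no signal well above background, so its list is not given. The list was made for Hspa1a after its values were seen, as a description of 8 points that share their slides, giving Nol5a (r = 0.992), Prdm8 (0.989), Edg4 (0.986), Acp2 (0.985) and Nrxn3 (0.985) of 11353 named probes. None of these 5 is a listed chaperone gene.

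Hspa4 and Hsph1 encode HSP110 proteins, which exchange the nucleotide of HSP70. The 2 probes of Hspa4 went in opposite directions. Probe A_42_P625181 read 8.19 and 8.45 in naïve rats, 9.08 and 8.82 in sham rats, 7.3 and 7.39 in surviving neurons and 7.44 and 7.20 in dying ones, so both injured groups lay below both controls. Probe A_44_P476830 read 0.80 and 1.48, 1.99 and 1.57, 3.47 and 3.0, and 3.50 and 2.99 in the same order, with both injured groups above both controls. On both probes surviving and dying neurons overlapped, at 0.02 ± 0.44 (adjusted p 0.987) and -0.01 ± 0.50 (0.992), differences whose sign changed under 3 and under 2 of the other scalings.

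Against sham, A_42_P625181 fell in surviving (-1.61 ± 0.43, adjusted p 0.0402) and in dying neurons (-1.63 ± 0.44, 0.0189), and passed in 9 of 20 alternatives (0.0121 to 0.289) and 13 of 20 (0.0121 to 0.174). The call of Hspa4 in surviving neurons was lost without sham replicate 1 (-1.48, adjusted p 0.251), sham replicate 2 (-1.73, 0.161), surviving replicate 1 (-1.56, 0.198) or surviving replicate 2 (-1.65, 0.224), and the call in dying neurons without sham replicate 1 (-1.50, 0.138) or sham replicate 2 (-1.75, 0.0862). Other scalings ended the first under all 5 (-1.56 to -0.51) and the second under the 4 besides normexp (-1.26 to -0.60). No filter and the replicate block also ended the first (-1.61), and the 2 groups alone the second (-1.63). A_44_P476830 rose by 1.47 ± 0.50 in dying neurons (adjusted p 0.0424), passing in 12 of 20 alternatives (0.00258 to 0.208). It was lost without sham replicate 1 (1.68, adjusted p 0.131), sham replicate 2 (1.26, 0.208), dying replicate 1 (1.21, 0.144) or either surviving array (1.47, 0.0726 each), and with no filter, the 2 groups alone or the replicate block (1.47), and it was kept under all 5 other scalings. In surviving neurons it gave 1.45 ± 0.50 (adjusted p 0.0751), and passed in 7 of 20 alternatives (0.00523 to 0.319): without dying replicate 1 or 2 (1.45, 0.0461 each), with the 2 groups alone (1.45) and under the 4 scalings other than RefSeq medians (1.74 to 2.43). Why the probes of Hspa4 oppose each other was not tested.

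Hsph1, a stress-inducible HSP110 gene, was read by 1 probe, A_44_P121374, at 3.38 and 4.39 in naïve rats, 4.31 and 4.28 in sham rats, 2.30 and -0.18 in surviving neurons and -1.93 and 1.82 in dying ones, the -1.93 not being well above background. The 4 control arrays lay together above all 4 injured arrays, among which the replicates were far apart and the groups overlapped. Dying neurons fell by 4.35 ± 1.19 (adjusted p 0.0206), passing in 13 of 19 alternatives (0.00336 to 0.112). The call of Hsph1 was lost without sham replicate 1 (-4.34, adjusted p 0.0934), sham replicate 2 (-4.37, 0.0772) or dying replicate 1 (-2.48, 0.112), and under the 75th percentile, quantile normalization and probes above background (-3.67 to -3.33). Surviving against sham gave -3.23 ± 1.21 (adjusted p 0.0968), which passed without either dying array (-3.23, 0.0258 each; 0.0232 to 0.471 over 20 alternatives), with the 2 groups alone (-3.23) and under normexp (-1.85), and surviving against dying 1.12 ± 1.21 (0.634).

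**Figure D2:**
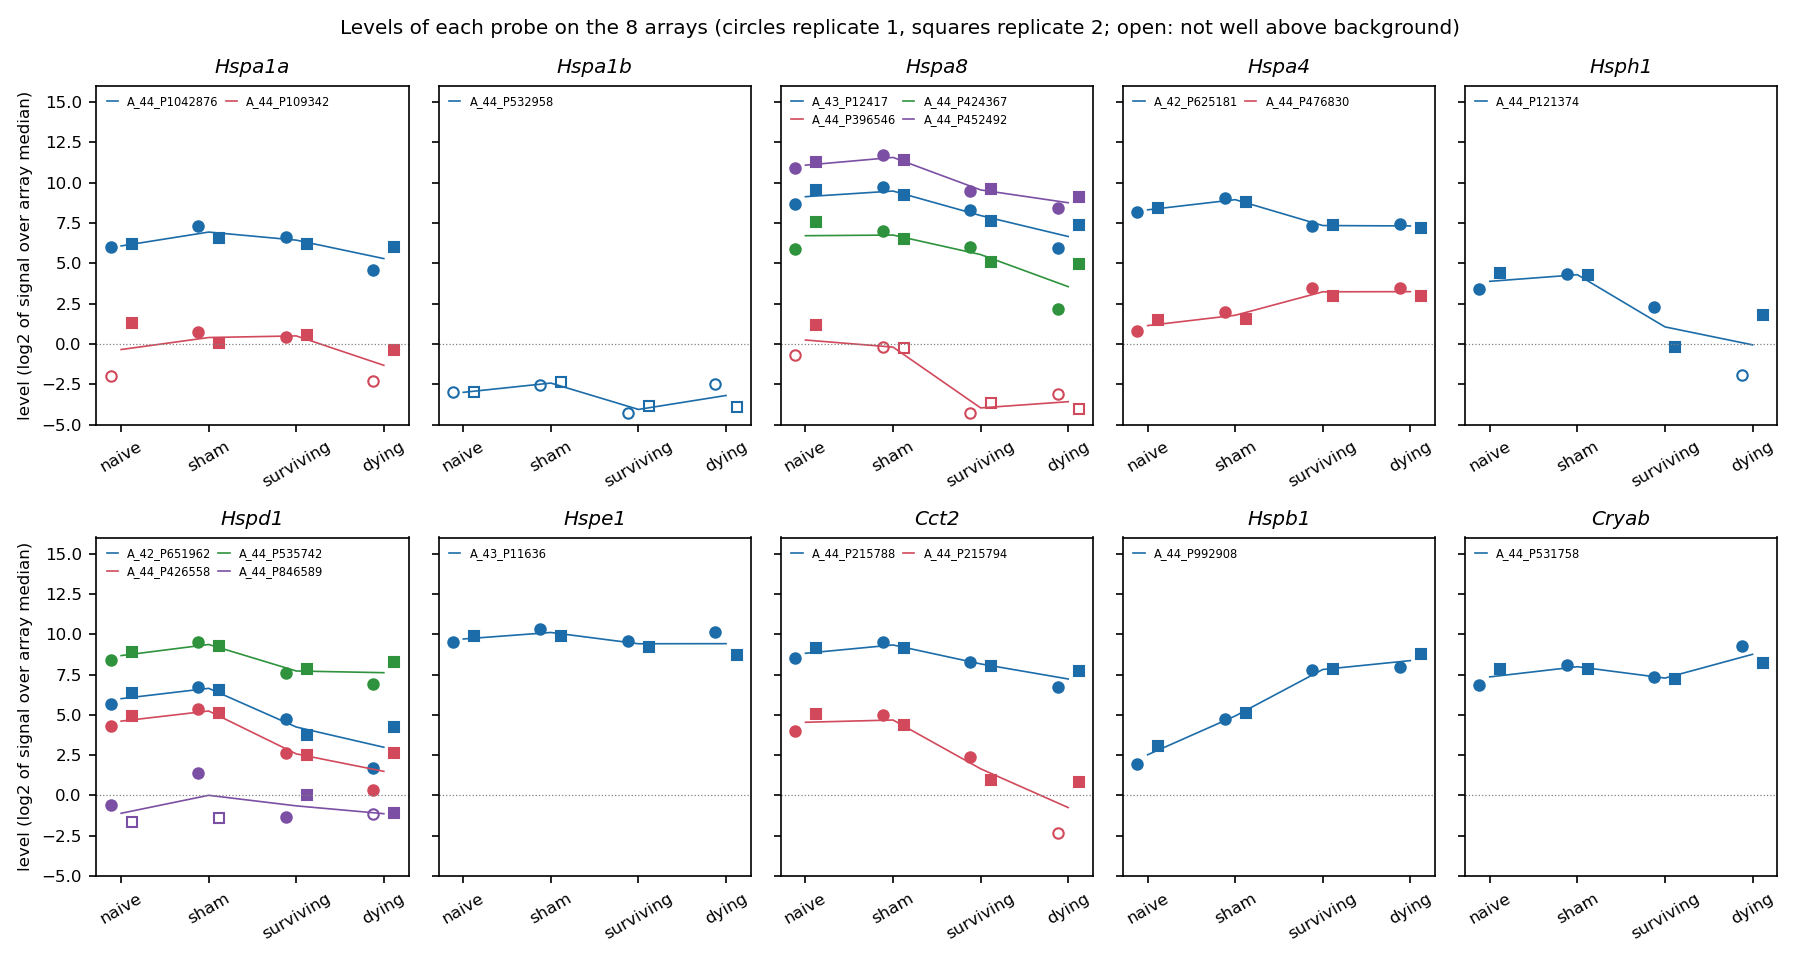
Level of every member probe on each array (log2 of signal over array median) by group, with circles for replicate 1, squares for replicate 2, open symbols for values not well above background and lines through the group means. The mean of Hspb1 goes from 2.52 in naïve to 8.37 in dying neurons, while most Hspa8, Hspd1, Hsph1 and Cct2 probes are lowest in dying neurons and the 2 probes of Hspa4 go opposite ways.

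Hspd1 and Hspe1 encode the HSP60 barrel and its HSP10 lid. Of the 4 Hspd1 probes, A_44_P535742 read 8.43 and 8.92 in naïve rats, 9.49 and 9.24 in sham rats, 7.62 and 7.82 in surviving neurons and 6.94 and 8.29 in dying ones. In the same order A_42_P651962 read 5.66 and 6.35, 6.74 and 6.55, 4.72 and 3.77, and 1.73 and 4.25, and A_44_P426558 read 4.29 and 4.93, 5.38 and 5.10, 2.66 and 2.50, and 0.33 and 2.66. On these 3 probes all 4 injured arrays lay below all 4 controls, and dying replicate 1 was the lowest array while dying replicate 2 lay among or above the surviving ones. The fourth, A_44_P846589, lay between -1.62 and 1.42 and was not well above background in naïve replicate 2, sham replicate 2 and dying replicate 1.

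In dying neurons Hspd1 fell at 3 probes, with differences of -1.76 ± 0.55 at A_44_P535742 (adjusted p 0.0335), -3.66 ± 0.80 at A_42_P651962 (0.00907) and -3.75 ± 0.73 at A_44_P426558 (0.00603) relative to sham, in 8, 18 and 19 of 20 alternatives (adjusted p 0.00748 to 0.447, 0.00164 to 0.0643 and 0.00117 to 0.0521). Without sham replicate 1 they were -1.63 (adjusted p 0.169), -3.56 (0.0643) and -3.60 (0.0521), and A_44_P535742 was also lost without sham replicate 2 (-1.88, 0.111), dying replicate 1 (-1.08, 0.144) or either surviving array (-1.76, 0.0589 each). It was lost under all 5 other scalings too (-1.39 to -0.62), and with no filter or the 2 groups alone (-1.76), while A_42_P651962 was lost under quantile normalization (-2.67). The fall at A_42_P651962 was smaller by dying replicate 2 (4.25) than by dying replicate 1 (1.73), against a sham mean of 6.65. Surviving neurons fell by the test at A_44_P426558 alone, -2.66 ± 0.74 (adjusted p 0.0428), in 9 of 20 alternatives (0.00451 to 0.228). That call of Hspd1 was lost without either naïve array (-2.66, adjusted p 0.054 each), sham replicate 1 (-2.52, 0.217), sham replicate 2 (-2.80, 0.147), surviving replicate 1 (-2.74, 0.167) or surviving replicate 2 (-2.58, 0.228), with no filter (-2.66) and under the 4 scalings other than RefSeq medians (-1.88 to -1.46).

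In surviving neurons the other Hspd1 probes gave -1.65 ± 0.56 at A_44_P535742 (adjusted p 0.0731), -2.40 ± 0.81 at A_42_P651962 (0.0728) and, at the dim A_44_P846589, -0.66 ± 0.91 (0.631), the last turning to 0.12 and 0.32 under 2 other scalings. The first and the second passed without either dying array (adjusted p 0.0241 and 0.0146; 0.0118 to 0.74 and 0.00934 to 0.362 over 20 alternatives) and with the 2 groups alone. Surviving exceeded dying neurons by 0.11 ± 0.56, 1.26 ± 0.81, 1.08 ± 0.74 and 0.48 ± 0.91 at A_44_P535742, A_42_P651962, A_44_P426558 and A_44_P846589 (adjusted p 0.935, 0.402, 0.432 and 0.798), the first turning negative under 2 scalings (-0.16 and -0.22). Without dying replicate 2, Hspd1 passed at A_42_P651962 (2.52, adjusted p 0.0315; 0.0315 to 1.0 over 21 alternatives) and at A_44_P426558 (2.25, 0.0275; 0.0275 to 0.968). Without dying replicate 1 these 2 were 0.0016 and -0.08, so both rested on that array.

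Hspe1, which lies head to head with Hspd1, was not called in any comparison. Its probe A_43_P11636 read 9.49 and 9.92 in naïve rats, 10.30 and 9.92 in sham rats, 9.60 and 9.22 in surviving neurons and 10.13 and 8.70 in dying ones. The dying replicates bracketed the surviving ones and reached the sham values. Differences were -0.70 ± 0.57 for surviving against sham (adjusted p 0.403), -0.70 ± 0.57 for dying against sham (0.336) and -0.0016 ± 0.58 for surviving against dying (0.999), and each took the other sign under 3, 3 and 2 of the other scalings (0.08 to 0.29, 0.02 to 0.32, and 0.06 to 0.66). The difference between Hspd1 and Hspe1 was not tested.

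Cct2 encodes a subunit of the ring that folds actin and tubulin. Probe A_44_P215788 read 8.52 and 9.12 in naïve rats, 9.52 and 9.15 in sham rats, 8.27 and 8.05 in surviving neurons and 6.70 and 7.75 in dying ones, without overlap between any 2 groups. Probe A_44_P215794 read 4.01 and 5.07, 4.96 and 4.40, 2.36 and 0.95, and -2.33 and 0.83 in that order, with -2.33 not well above background. Both put dying neurons lowest. From sham to dying neurons Cct2 fell at both, the differences being -2.11 ± 0.53 at A_44_P215788 (adjusted p 0.0145; 14 of 20 alternatives, 0.00658 to 0.136) and -5.43 ± 0.99 at A_44_P215794 (0.00485; 19 of 19, 0.00126 to 0.0437). The first was lost without sham replicate 1 (-1.92, adjusted p 0.109), sham replicate 2 (-2.29, 0.0618) or dying replicate 1 (-1.58, 0.0633), and under quantile normalization, probes above background and normexp (-1.14 to -1.07). The second rests in part on the value not well above background, and was -3.84 without that array (adjusted p 0.0171).

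Surviving neurons gave -1.18 ± 0.53 (adjusted p 0.147) and -3.02 ± 1.0 (0.0695) at these Cct2 probes relative to sham. The first turned to 0.06 under normexp background correction and passed with the 2 groups alone. The second passed without either dying array (-3.02, adjusted p 0.0149 each; 0.0102 to 0.36 over 20 alternatives), with the 2 groups alone (-3.02) and under normexp (-2.03). Surviving exceeded dying neurons by 0.93 ± 0.53 (adjusted p 0.351) and 2.41 ± 1.0 (unadjusted 0.0419, adjusted 0.221). The second rested on dying replicate 1, being 3.99 without dying replicate 2 (adjusted p 0.019) and 0.82 without dying replicate 1 (0.702; 0.019 to 0.702 over 20 alternatives).

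Hspb1, the small heat shock protein that also caps actin filaments, was ordered from naïve over sham and surviving to dying neurons. Its probe A_44_P992908, spotted 10 times, read 1.96 and 3.09 in naïve rats, 4.75 and 5.11 in sham rats, 7.78 and 7.85 in surviving neurons and 7.98 and 8.75 in dying ones. Every group lay above the one before it, and neighbours in this order were told apart by the test only between sham and surviving neurons. Hspb1 rose by 2.89 ± 0.55 in surviving (adjusted p 0.015) and by 3.44 ± 0.54 in dying neurons (0.00317) over sham, with both arrays of each group higher. The dying call passed in 20 of 20 alternatives (0.00103 to 0.0391) and the surviving call in 16 (0.00386 to 0.132). The latter was lost without sham replicate 1 (2.71, adjusted p 0.132), sham replicate 2 (3.07, 0.0864), surviving replicate 1 (2.92, 0.101) or surviving replicate 2 (2.85, 0.13). Dying exceeded surviving neurons by less than the error could resolve, the surviving minus dying value being -0.55 ± 0.55 (adjusted p 0.599). Most of that difference rested on dying replicate 2 (8.75), since dying replicate 1 (7.98) lay near the surviving arrays. Sham exceeded naïve by 2.40 ± 0.53, with an unadjusted p of 0.00176 that did not pass (adjusted p 0.515; 0.0186 to 1.0 over 20 alternatives, of which 1 passed).

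Cryab, a small heat shock protein of glia and stressed neurons, had the lowest surviving minus dying value of the members tested, and was not called. Its probe A_44_P531758 read 6.88 and 7.83 in naïve rats, 8.10 and 7.87 in sham rats, 7.33 and 7.23 in surviving neurons and 9.28 and 8.23 in dying ones. Both dying arrays lay above all 6 others, and both surviving arrays below both sham arrays. Surviving minus dying was -1.48 ± 0.55 (unadjusted p 0.0278, adjusted 0.19), which passed without dying replicate 2 (-2.0, adjusted p 0.0476) and was -0.95 without dying replicate 1 (0.511; 0.0476 to 0.538 over 21 alternatives). Dying against sham gave 0.77 ± 0.55 (adjusted p 0.269), resting mostly on dying replicate 1, since dying replicate 2 at 8.23 lay near the sham mean of 7.99. The difference passed under the 4 scalings other than RefSeq medians and the series table, at 1.39 to 1.79 (0.0114 to 0.761 over 20 alternatives). Surviving against sham gave -0.70 ± 0.55 (adjusted p 0.381) and changed sign under those 4 (0.07 to 0.32).

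Hspb1 and Cryab are also made by glia and vessels, so marker genes of cell types were summed on each array as signal over array median. Microglia and macrophage markers (9 genes on the array) summed to 122 and 255 in naïve rats, 270 and 258 in sham rats, 458 and 484 in surviving neurons and 2390 and 1390 in dying ones, led by C1qa in controls, Lgals3 in surviving and C1qb in dying neurons. Astrocyte markers (7 genes, led by Slc1a3 throughout) summed to 809 and 1010, 1490 and 1000, 588 and 602, and 1030 and 520 in that order. The log2 level of Gfap took another course, at 1.76 and 2.10, 1.74 and 1.58, 3.57 and 2.73, and 1.09 and 3.61. Of 6 astrocyte markers tested, Gfap alone was higher in surviving than in sham neurons and 5 were lower. Gfap was not called there by limma (1.48, adjusted p 0.216). Oligodendrocyte markers (6 genes, led by Mog) summed to 173 and 272, 238 and 305, 64.8 and 69.1, and 179 and 78.1. Cryab was highest in dying replicate 1 (9.28), where the sums of the microglia and of the endothelium and pericyte lists were highest. The astrocyte and oligodendrocyte sums were also higher there than in dying replicate 2, within the range of the controls. In both surviving arrays the microglia sums stood above all 4 controls. Cryab there (7.33 and 7.23) lay below both sham arrays and within the naïve range (6.88 to 7.83). Its difference from sham changed sign under some of the other scalings. Hspb1 was higher in dying replicate 2 (8.75) than in dying replicate 1 (7.98), as was Gfap. The sums of the microglia, astrocyte, oligodendrocyte and endothelium and pericyte lists were higher in dying replicate 1. Oligodendrocyte markers were below all 4 controls in both surviving arrays and dying replicate 2, with dying replicate 1 in the range of the controls. Endothelium and pericyte markers (6 genes, led by Pdgfrb or Vwf) summed to 58.9 and 83.4, 81.5 and 61.8, 64.2 and 51.9, and 284 and 103. Pyramidal neuron markers (7 genes, led by Nrgn) summed to 5400 and 8100, 10700 and 9290, 5830 and 5760, and 3010 and 3190, and were lowest in dying neurons.

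By the limma test of dying against sham, 5 of 8 microglia markers and 2 of 5 endothelium and pericyte markers were called higher, beside 14.7% of all probes, Lgals3 by 1 dying array since the spot on the other was non-uniform, and 3 of 6 astrocyte, 2 of 6 oligodendrocyte and 2 of 7 pyramidal neuron markers lower, beside 28.6%. The microglia list did not move as one, since Aif1 (-0.15, adjusted p 0.826) and Csf1r (-0.35, 0.638) were not called and Cx3cr1 was not tested. In surviving against sham neurons, 1 of 9 microglia (Lgals3) and 1 of 5 endothelium and pericyte markers (Flt1) were called higher, beside 6.47% of all probes, and 1 of 6 astrocyte, 1 of 6 oligodendrocyte and 1 of 7 pyramidal markers lower, beside 11.3%. Flt1, called in both, was not well above background in either sham array, so the filter left it only an upward call. Pyramidal neuron markers had a median of -1.91 in dying against sham, beside -1.93 for the members, and all 7 were lower. In surviving against sham their median was -0.2, with 3 higher and 4 lower, beside -1.21 for the members. Between surviving and dying neurons 0 of the 9 microglia markers were called, with 5 at an unadjusted p under 0.05, all lower in surviving (10.3% of all probes were), and a median of -1.59. The part of other cells in the levels of Hspb1 and Cryab, and that of fewer neurons in the fall of other members, was not tested.

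**Figure D3:**
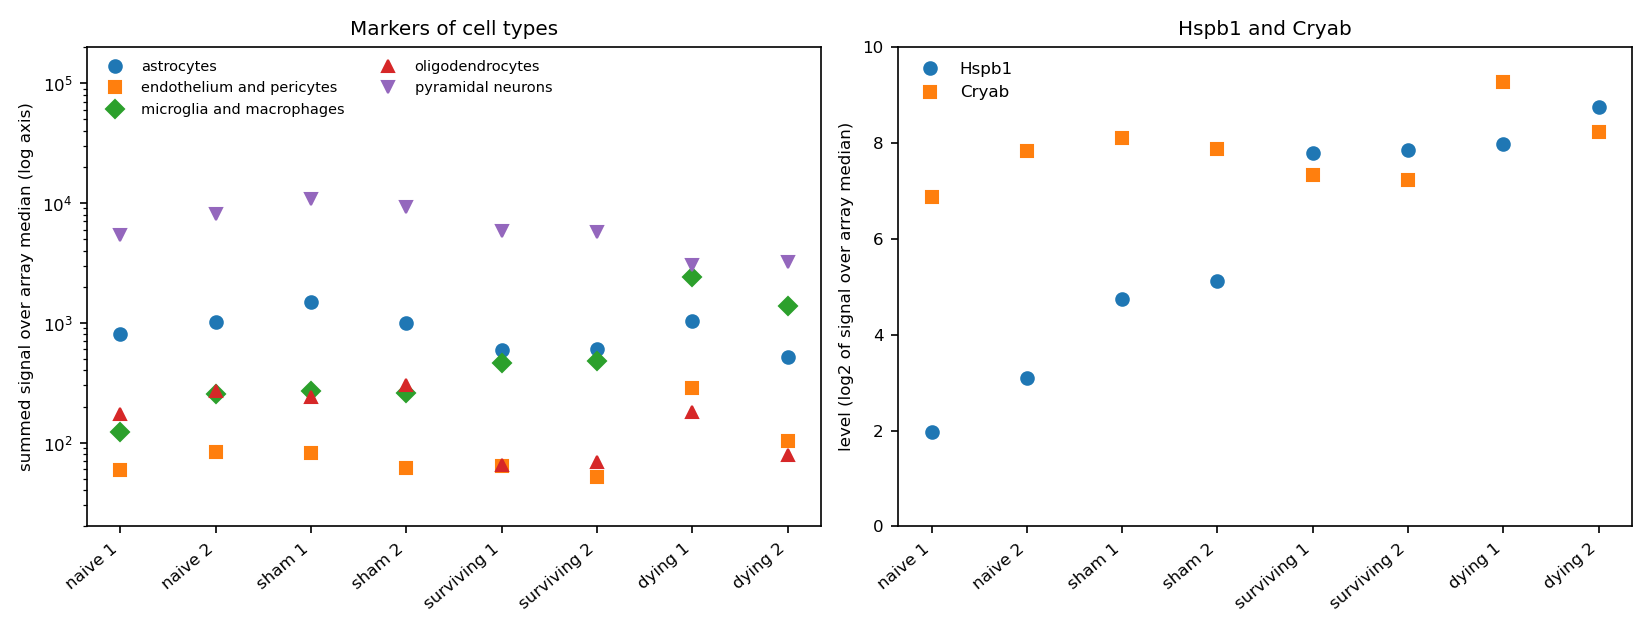
Left, summed signal over array median of 5 marker lists on each array (log axis); right, level of Hspb1 and Cryab on the same arrays (log2 of signal over array median). Microglia and macrophage markers reach 2390 and 1390 in the 2 dying arrays, where Cryab reads 9.28 and 8.23. Endothelium and pericyte markers reach 284 and 103 there.

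The comparison of surviving with dying neurons asks what separates neurons of the same injured field. Of 17 member probes tested, 0 were called by limma (0% of all 27393 probes), with 1 higher and 1 lower at an unadjusted p under 0.05 (10.8% and 10.3% of all). The smallest adjusted p was 0.19 among members and 0.0714 among all. Without overlap, 7 member probes were higher in surviving neurons and 2 lower, against 30.2% and 21.5% of all, and 8 overlapped. The higher ones were all probes of Hspa8, Cct2 or Hspa1a, and the lower ones those of Hspb1 and Cryab. Probes of the same gene count separately here and in the member median. The median member difference was 0.93, beside 0.15 over all probes tested and 0.03 over those above background on all 4 arrays, and under 5 other scalings it lay between 0.60 and 0.99 while that of all probes reached -0.17 with RefSeq medians. It was 0.40 without dying replicate 1 and 1.46 without dying replicate 2. Leaving out dying replicate 2 brought 5 member probes and 5620 of all probes past the threshold, the members being Cct2 A_44_P215794, Hspa8 A_44_P424367, Hspd1 A_42_P651962 and A_44_P426558, and Cryab.

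Surviving against sham asks what injury left in neurons without the dye. Of 17 member probes, 1 was higher (Hspb1) and 3 lower (1 each of Hspa8, Hspa4 and Hspd1), beside 6.47% and 11.3% of 26909 probes. Without overlap, 2 lay above and 12 below sham, beside 28.0% and 48.9% of all. The median member difference was -1.21 and that of all probes -0.43, or -0.82 for probes above background on all 4 arrays. Scaling moved that background: the median of all became 0.35 with the 75th percentile, 0.17 with quantile normalization, 0.55 with probes above background and 0.09 with normexp, while the member median was -0.43, -0.73, -0.23 and -0.36. Calls over all probes were 1741 higher and 3050 lower, against 4143 and 1529, 2210 and 1525, 5117 and 1279, and 1476 and 1098 under those 4. Of the 4 member calls, 1 was kept under each of them (Hspb1), and all 4 kept their direction. Without sham or surviving replicate 1 or 2 in turn, 0 member probes were called (289, 526, 355 and 361 of all for sham 1, sham 2, surviving 1 and surviving 2), and without either dying array 9 were (8081 of all).

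Dying against sham, which shares the sham arrays with the preceding comparison, held most of the calls. Of 16 member probes tested, 2 rose (Hspb1 and Hspa4 A_44_P476830) and 11 in 6 genes fell (3 each of Hspa8 and Hspd1, 2 of Cct2 and 1 each of Hspa1a, Hspa4 and Hsph1), beside 14.7% and 28.6% of 25628 probes. Without overlap, 3 lay above and 12 below sham, beside 30.7% and 45.4%. The member median was -1.93 and that of all probes -0.47, or -0.91 for probes above background on all 4 arrays. With the 75th percentile, quantile normalization, RefSeq medians, probes above background and normexp, the median of all became 0.25, 0.17, -0.10, 0.55 and -0.00098 and that of members -1.21, -1.38, -1.56, -0.92 and -1.07. All calls split into 3763 higher and 7338 lower, against 6984 and 4817 (75th percentile), 5092 and 4172 (quantile), 4808 and 5703 (RefSeq) and 8358 and 3830 (above background). Of the 13 member calls, 8, 6, 10, 7 and 8 were kept under those 5 scalings, all in their direction. Without sham replicate 1 there were 3 (Hspb1, Hspa8 A_44_P452492 and Cct2 A_44_P215794; 2984 of all), without sham replicate 2 there were 6 (4981 of all) and without dying replicate 1 there were 7 (7371 of all).

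Sham against naïve asks what the procedure alone did, within 1 slide. Of 16 member probes 0 were called by limma (0% of 20679), with 1 at an unadjusted p under 0.05 (Hspb1), beside 836 higher and 169 lower of all. Without overlap, 10 lay above naïve and 0 below, beside 38.5% and 4.33%. All 16 differences were positive, from 0.03 to 2.40, with a median of 0.63 beside 0.41 over all. That direction moved with the scale, as 6 of the 16 were negative under quantile normalization and under normexp, 5 with probes above background and 2 with the 75th percentile or RefSeq medians, while the median of all became 0.05, -0.02, -0.05, 0.11 and 0.26. Over all probes 42 were called without either dying array, none of them a member.

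**Figure D4:**
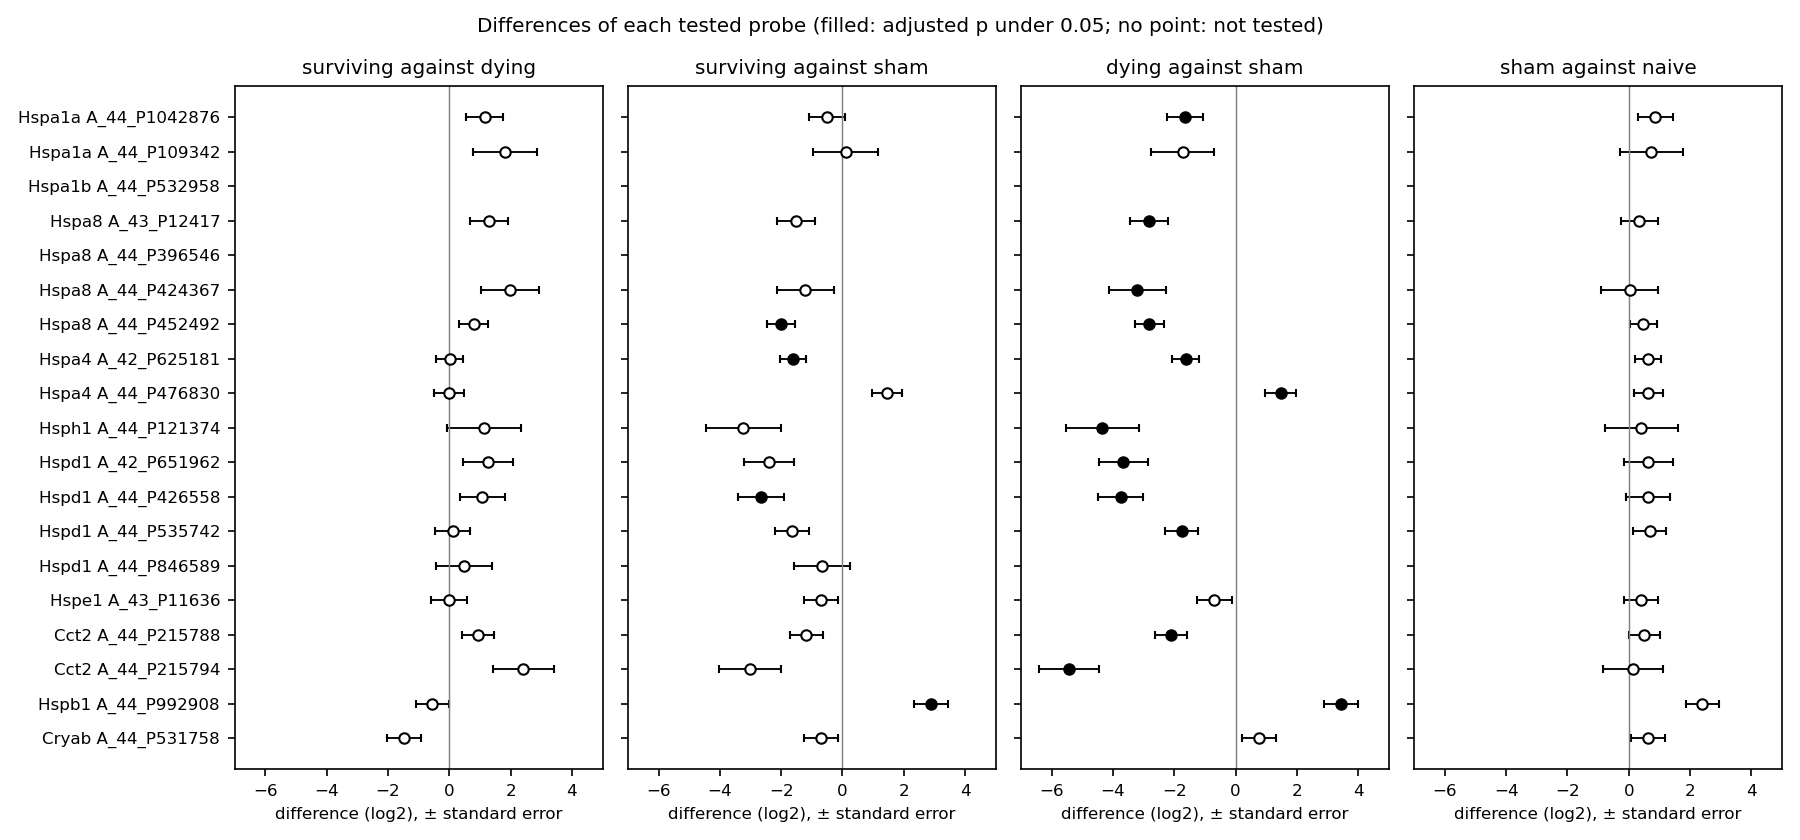
Difference of group means (log2) with its standard error for each tested member probe in 4 comparisons, filled where the adjusted p was under 0.05. Relative to sham, Hspb1 is higher and most HSP70, HSP60 and Cct2 probes lower in dying neurons. All 13 calls there kept their direction under each of the 5 other scalings, but only 6 to 10 of them stayed called. Between surviving and dying or sham and naïve 0 probes are filled.

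Other chaperone genes were read from lists of 63 genes, 54 of them on the array, with the brightest probe for each. Relative to sham, 23 of the 51 tested were called lower and 3 higher in dying neurons, beside 28.6% and 14.7% of all probes tested, 37 lay below and 6 above without overlap, beside 45.4% and 30.7%, and the median was -1.39, ranging from -1.02 to -0.36 under 5 other scalings. HSP40 genes of the DnaJ family, partners of HSP70, fell in 6 of 10 (median -2.19), other HSP70 genes in 4 of 4 (-2.11), the HSP110 gene Hspa4l in 1 of 1 (-3.11), mitochondrial chaperones in 2 of 3 (-1.63), co-chaperones in 5 of 12 (-1.34) and heat shock factors and their regulators in 2 of 4 (-0.96, turning to 0.06 with probes above background). Of CCT and prefoldin genes 2 of 9 fell (-1.17), and all 9 lay below sham without overlap. The 2 HSP90 genes were not called (-0.45, positive under 4 scalings). Among the genes that fell were Dnajc6, the auxilin that uncoats clathrin vesicles with HSP70 (-3.10, adjusted p 0.00282), Hspa4l (-3.11, 0.00405), Dnajb4 (-4.07, 0.00449, with dying replicate 1 not well above background), Hsbp1, which binds heat shock factor 1 (-2.40, 0.00573), Dnaja2 (-3.28, 0.00583), Stip1, which joins HSP70 to HSP90 (-2.96, 0.00745), the CCT subunit Tcp1 (-2.45, 0.00767), the factor Hsf2 (-2.07, 0.00884) and Hspa12a (-1.97, 0.0106). Without sham replicate 1 the calls of Hsbp1 (-2.22), Dnaja2 (-3.12), Stip1 (-3.03), Tcp1 (-2.11), Hsf2 (-1.92) and Hspa12a (-1.85) were lost, those of Hsf2 (-2.23) and Hspa12a (-2.09) also without sham replicate 2.

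Of 6 small heat shock proteins, 3 were called higher in dying than in sham neurons and 1 lower. The 3 were not well above background in either sham array and were tested because they were in dying neurons, so the filter left them only an upward call, and the family was not tested against other genes. Hspb7 was not well above background in any control array and read 0.57 and 0.87 in surviving neurons and 0.98 and 0.47 in dying ones, at least 1.93-fold higher than sham in either (adjusted p 0.00538 and 0.00212). Hspb8, a partner of Bag3, read 0.86 and -0.13 in naïve rats and, not well above background, -0.90 and -1.18 in sham rats. It read 1.57 and -0.23 in surviving neurons and 3.11 and 1.30 in dying ones. By their mean, dying neurons were at least 5.39-fold higher than sham (adjusted p 0.0134), a bound that would be lower by dying replicate 2 alone. Surviving replicate 1 lay above dying replicate 2. Hspb2, the chromosomal neighbour of Cryab, read 0.14 and -0.17 in naïve rats and, not well above background, -0.31 and -1.40 in sham rats. It read 0.07 and 0.12 in surviving neurons and 2.53 and 0.12 in dying ones, at least 2.94-fold higher than sham (adjusted p 0.0488), so that 1 dying array carried it and the other lay at the naïve level. Hspb6 read 5.98 and 5.27 in sham and 4.38 and 3.35 in dying neurons and fell by 1.76 (adjusted p 0.0322), a call that was lost under the 5 other scalings (-1.39 to -0.64). Hspb2, Hspb6 and Hspb8 were chosen after their values were seen. The call of Hspb8 was lost without sham replicate 1 (adjusted p 0.0698), sham replicate 2 (0.0696) or dying replicate 1 (0.0799; 0.00479 to 0.0799 over its alternatives), and that of Hspb6 without sham replicate 1 (-1.40), sham replicate 2 (-2.12), dying replicate 2 (-1.25) or either surviving array (-1.76). The call of Hspb2 was lost without either naïve array (adjusted p 0.0651 each), either surviving array (0.0713 each), sham replicate 1 (0.0942), sham replicate 2 (0.231) or dying replicate 1 (0.25; 0.00443 to 0.25 over its alternatives). The median of the list was 2.13, or 0.47 with bounds in place of values not well above background.

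Of these other chaperone genes, 26 were called in dying against sham neurons. Far fewer were called without sham replicate 1, and fewer without sham replicate 2, dying replicate 1 or either surviving array. Calls over all probes also fell in each of these fits. In surviving against sham neurons 1 of 54 was called higher (Hspb7, not well above background in sham) and 2 lower (Hspa4l, -1.97, adjusted p 0.0406; Dnajc6, -1.63, 0.0483), beside 6.47% and 11.3% of all probes, 10 lay above and 33 below without overlap, beside 28.0% and 48.9%, and the median of -0.55 turned positive under 4 scalings (0.23 to 0.43). Those calls went to 0 without sham replicate 1 or 2 or surviving replicate 1 or 2, where Hspb7 had an adjusted p of 0.0721, 0.053, 0.0558 and 0.0775 (0.00249 to 0.0775 over its alternatives), Hspa4l was -1.90, -2.05, -1.85 and -2.10 and Dnajc6 -1.37, -1.90, -1.69 and -1.57, and there were 9 without either dying array. Dnajc6 was also lost without either naïve array (-1.63). Hsf2 gave -1.45 (adjusted p 0.0578) and passed without either dying array (-1.45), and the named genes with positive values were Hsp90ab1 at 1.44 (0.338), Hsp90aa1 at 1.08 (0.486) and Cdc37, which loads kinases onto HSP90, at 0.60. Between surviving and dying neurons limma called 0 of 54, with 10 higher and 0 lower at an unadjusted p under 0.05 (10.8% and 10.3% of all probes), 28 above and 3 below without overlap (30.2% and 21.5% of all) and a median of 0.68. The named genes were Dnajc5 (1.84), Stip1 (1.67) and Dnajc6 (1.47) on the side of surviving neurons and Hspb2 (-1.24), Bag3 (-1.0) and Hsf1 (-0.45, 0.05 under normexp) on the side of dying neurons. Without dying replicate 2, the differences were 2.49 for Dnajc5, 2.43 for Stip1, 1.82 for Dnajc6 and -2.44 for Hspb2. In dying against sham neurons Bag3 gave 0.49 (adjusted p 0.373) and Hsf1 0.16 (0.79), which passed under 3 (1.22 to 1.67) and 2 (1.17 and 1.34) of the other scalings. In sham against naïve neurons 0 of 49 were called and 0 had an unadjusted p under 0.05, with a median of 0.48 that was about 0 under 3 scalings (-0.01 to 0.02), and the named genes were Chordc1 (0.87), Hsf2 (0.84) and Hspa9 (0.77).

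**Figure D5:**
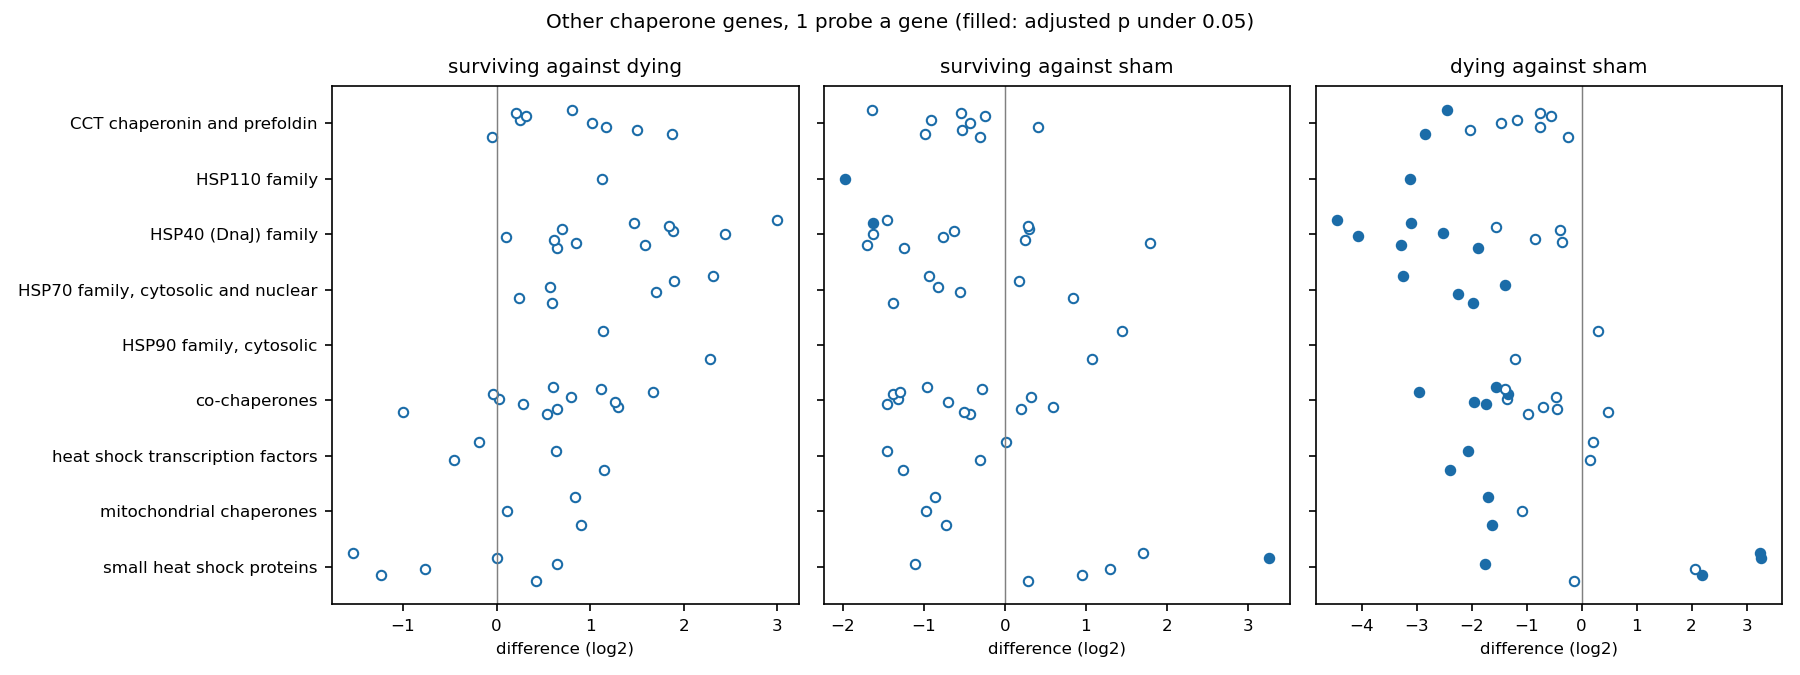
Difference of group means (log2) for the brightest probe of each other chaperone gene tested, by family, filled where the adjusted p was under 0.05. In dying against sham neurons 23 genes are called lower and 3 higher, these 3 being small heat shock proteins drawn at their fitted values though not well above background in sham, while between surviving and dying neurons 0 are filled.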

How the data were processed

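RNA of captured CA3 neurons was measured on 8 one-colour rat arrays, 2 for each of naïve, sham, surviving and dying, grouped by the sample titles. Per the file headers, the authors made the processed intensity values with Agilent Feature Extraction 9.1.3.1 by subtracting background and removing spatial and multiplicative trends, with no normalization between arrays. The same files hold the deposited mean intensity of each spot and the median intensity of its local background, with marks for spots well above background, non-uniform or saturated (0 saturated). The series table holds a signal that the authors deposited as the processed signal divided by 1 constant for each array, as found by comparing the values. The labels name 2 amplification kits without saying which pool had which.

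Spots marked non-uniform were dropped, the spots of each probe were averaged, and signals were scaled to the array's median over probes that are not controls, held at 0.01 or above and taken to log2. limma 3.58.1 in R 4.3.3 fitted 1 mean for each of the 4 groups over all 8 arrays (4 residual degrees of freedom before moderation across probes), with two-sided p-values adjusted by Benjamini-Hochberg over the probes that 1 or both groups of a comparison showed well above background on 2 of 2 arrays, at a threshold of 0.05. For a group without an array above background, the fold is a lower bound: the mean of the brighter group against, for each array of the dim group, the probe's own signal or the dimmest signal marked well above background, whichever is higher. Marker sums kept non-uniform spots. Gene names are those of the files, and the accessions of 18 of the 19 member probes matched the gene of that name in the reference. Of the marker genes listed, 35 of 38 were on the array, and 1 more of the plan is not reported here. Python 3.11.15, pandas 2.3.3, numpy 2.4.6 and matplotlib 3.10.9 were used for tables and figures, and the fit was tested on simulated data. With 2 arrays a group, their number limits the precision.

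Named were every member probe and, of the other chaperone genes, up to 3 in each direction of smallest p among probes well above background on all 4 arrays with groups apart, and those called, up to 10. Exceptions chosen after their values were seen are Hspb2, Hspb6 and Hspb8, and the likeness list of Hspa1a. The members and lists were chosen with earlier results of these data known. Alternatives were the 75th percentile, quantile normalization, the median of RefSeq probes, probes above background, normexp with an offset of 50 (leaving out 6 spots of local background over 2 times the array median, chosen after seeing the data), the series table, a floor of 0.1, keeping non-uniform spots, no filter, all arrays above background, the 2 groups alone, the replicate number as a block, leaving out each array, and for other chaperone genes the mean over the probes of a gene.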

Additional observations from a re-analysis of the deposited data

How the results depend on the processing

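The calls of member probes against sham kept their direction under every alternative run, and the cause of each change below was not tested unless it lies in fewer arrays or probes. Member calls in surviving against sham numbered 4, and 2 with the 75th percentile, 2 with quantile normalization, 2 with probes above background and 11 with the 2 groups alone. In dying against sham they numbered 13, and 7 with quantile normalization and 8 with probes above background, and in sham against naïve 0, and 1 with the 2 groups alone. Over all probes, surviving against sham gave 2574 calls with normexp, 2865 with all arrays above background and 12184 with the 2 groups alone, and dying against sham 7242 with normexp and 7039 with all arrays above background. Sham against naïve gave 1 with quantile normalization and 292 with the 2 groups alone. Unadjusted counts of other chaperone genes between surviving and dying neurons were 21 with normexp and 5 with the 2 groups alone.

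Leaving out 1 array at a time, where the lone array is taken to vary like the other groups, gave 0 to 5620 calls over all probes in surviving against dying, 289 to 8081 in surviving against sham, 2984 to 13097 in dying against sham and 0 to 42 in sham against naïve, and 0 to 5, 0 to 9 and 3 to 13 member calls in the first 3. Other chaperone genes between surviving and dying numbered 0 to 15 called and 2 to 18 unadjusted, with a median of 0.47 to 1.02. Some signs changed with the array left out: in surviving against dying, Hspa4 A_42_P625181 ranged from -0.10 to 0.14 and A_44_P476830 from -0.27 to 0.25, Hspd1 A_44_P426558 from -0.08 to 2.25, A_44_P535742 from -0.56 to 0.79 and A_44_P846589 from -0.18 to 1.15, Hspe1 from -0.71 to 0.71 and Hsph1 from -0.76 to 2.99. In surviving against sham, Hspd1 A_44_P846589 ranged from -2.06 to 0.75 and Hspa1a A_44_P109342 from -0.22 to 0.42, and in dying against sham Hspe1 from -1.41 to 0.01.

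Differences that took the other sign under another scaling were, in surviving against dying, Hspa4 A_42_P625181 (-0.25 quantile, -0.31 RefSeq, -0.02 above background) and A_44_P476830 (0.04 with the 75th percentile, 0.17 normexp), Hspd1 A_44_P535742 (-0.16 quantile, -0.22 RefSeq), Hspe1 (0.06 with the 75th percentile, 0.66 normexp) and Hsf1 (0.05 normexp). In surviving against sham they were Cct2 A_44_P215788 (0.06 normexp), Cryab (0.07, 0.12, 0.27 and 0.32 with the 75th percentile, quantile, above background and normexp), Hspa1a A_44_P1042876 (0.27, 0.40, 0.47 and 0.57 in that order), Hspd1 A_44_P846589 (0.12 with the 75th percentile, 0.32 above background), Hspe1 (0.08, 0.28 and 0.29 with the 75th percentile, above background and normexp) and the median of other chaperone genes (0.23, 0.30, 0.43 and 0.35). In dying against sham Hspe1 was 0.02, 0.12 and 0.32 with the 75th percentile, quantile and above background. In sham against naïve the median of other chaperone genes was -0.009 with quantile and -0.01 with normexp. Left out of this list are the member differences of sham against naïve and the medians of single families, some of which also changed sign.

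The replicate numbers share nothing in the labels but the number, and replicate differences of 2 groups correlated between -0.195 (surviving and dying) and 0.072 over 15254 probes. With the replicate block, limma called 0 probes in surviving against dying (5409 unadjusted), 3356 in surviving against sham, 10325 in dying against sham and 0 in sham against naïve, and 0, 3, 11 and 0 member probes. The block ended the calls of Hspa4 A_42_P625181 in surviving neurons (adjusted p 0.0779) and of Hspa1a (0.067) and Hspa4 A_44_P476830 (0.0684) in dying neurons. The crossed pairing of surviving and dying arrays, chosen after seeing the data, called 0 probes, with 5530 unadjusted. Signal over background limits the dim probes of Hspa1b, Hspa8 A_44_P396546, Hspd1 A_44_P846589 and Hspa1a A_44_P109342.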
